A study of Mus musculus with 19 samples.

Results

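The effect of the genotype label Glud1KO on RNA levels was compared between dividing mouse myoblasts and the fused myotubes that such cells form in culture. For each gene the difference between the libraries labelled Glud1KO (KO-labelled) and the wild-type (WT) libraries was taken in fused myotubes, and the same difference in myoblasts was subtracted from it. All libraries of these stages entered, which were 14 of the 19 in the study. They were 3 WT and 3 KO-labelled libraries of myoblasts kept 24 h in growth medium, and 4 WT and 4 KO-labelled libraries of fused myotubes at 72 h. The other 5 libraries, 3 WT and 2 KO-labelled differentiated myotubes at 48 h, entered the fit and are described as a stage between the others.

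All cells were primary myoblasts from mouse hind-limb muscle, with no agent named in the labels. The labels call the genotype Glud1KO and give neither the allele nor how or when it was made. The names under which the data were deposited mark both genotype groups as knockout, with an added letter T for the libraries labelled Glud1KO. The labels were followed, and an effect of the genotype and of a treatment applied to 1 group cannot be told apart. Replicates are numbered as biological, without a statement that they are separate animals or cultures, so p-values measure the spread between these libraries, which may be technical.

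Glud1 encodes glutamate dehydrogenase, the mitochondrial enzyme that converts glutamate to 2-oxoglutarate and ammonium and so links amino acids to the TCA cycle. Myoblasts are the dividing progeny of muscle stem cells. When growth medium is withdrawn they leave the cell cycle, switch on the transcription factors Myog and Mef2c, fuse through membrane proteins such as myomaker (Mymk), and fill with sarcomeres, the contractile units of actin, myosin, troponin and titin. A difference of effects asks whether a genotype difference changes in size or direction between the ends of this course.

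Libraries held 16168131 to 30742634 estimated counts. The labels could not be told apart by the summed RNA of Glud1, which was at 192, 191 and 184 CPM (counts scaled to library size, with TMM factors between libraries) in WT myoblasts and 190.0, 185 and 186 CPM in KO-labelled myoblasts. Fused myotubes held 133, 141, 136 and 131 CPM in WT and 132, 131, 139 and 130.2 CPM in KO-labelled fused myotubes, with a difference of effects of -0.01 ± 0.05 (log2 ± SE, adjusted p = 0.97). This sum over transcripts does not check for a deletion of single exons. Summed over 9 myotube markers, WT fused myotubes were at 38639 to 41774 CPM and KO-labelled ones at 39684 to 41151 CPM, which fits the stage label in both groups. The markers of dividing myoblasts summed to 4265 to 4312 CPM in WT and 4230 to 4299 CPM in KO-labelled myoblasts. In fused myotubes the same markers still summed to 2648 to 2909 CPM in WT and 2474 to 2652 CPM in KO-labelled libraries. Itga7 had the highest mean level among them (1386 CPM), so the sum is a loose measure of division. Adipocyte markers stayed at or below 0.129 CPM, endothelial markers at or below 1.71 CPM and Schwann cell markers at or below 5.25 CPM in every library, and leukocyte markers between 1.45 and 9.60 CPM.

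Across the 15129 genes tested, 1559 had an effect that differed between the stages (adjusted p under 0.05, edgeR's quasi-likelihood test), which is 10.3% of the genes. For 869 genes (5.74%) the difference was above 0, meaning that the KO-labelled level relative to WT was higher in fused myotubes than in myoblasts. For 690 genes (4.56%) it was below 0, and for 447 without WT myoblast replicate 3. With an offset for effective transcript length 664 genes were called, 445 above and 219 below 0. At an unadjusted p under 0.05 there were 3522 genes. Most differences were small: the median size among the called genes was 0.349 on the log2 scale, and 150 genes reached 2-fold, 93 above and 57 below 0. The share of calls above 0 depended on the scaling, at 55.7% here, 66.3% with DESeq2's size factors, 67.1% in the DESeq2 test, and 67.0% when effective transcript lengths entered as an offset (70.0% with the replicate block as well). The median difference over all genes was -0.016.

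The effects behind these calls took several forms. In myoblasts 1744 genes (11.5%) differed between the labels, 735 (4.86%) higher and 1009 (6.67%) lower in the KO-labelled libraries. Without WT myoblast replicate 3 there were 920, without KO-labelled myoblast replicate 3 1072 and without replicate 1 of that group 1139. With the length offset there were 585. In fused myotubes 1968 genes (13%) differed, 957 (6.33%) higher and 1011 (6.68%) lower. With the length offset there were 824. Of the 1559 genes, 355 were lower in KO-labelled myoblasts and not called in fused myotubes, and 199 were higher in myoblasts and not called later. Another 310 were called lower and 295 called higher in fused myotubes without a call in myoblasts. Both stages were called in opposite directions for 166 genes, 123 lower and then higher and 43 higher and then lower, but 35 in all with the length offset, 26 with the replicate block as well, 95 without WT myoblast replicate 3 and 104 without KO-labelled myoblast replicate 3. Another 54 were called at both stages in 1 direction, 52 of them lower at both. Among all genes tested, with or without a called difference, 261 were called at both stages in 1 direction. The remaining 180 passed the test of the difference without passing it at either stage.

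**Figure D1:**
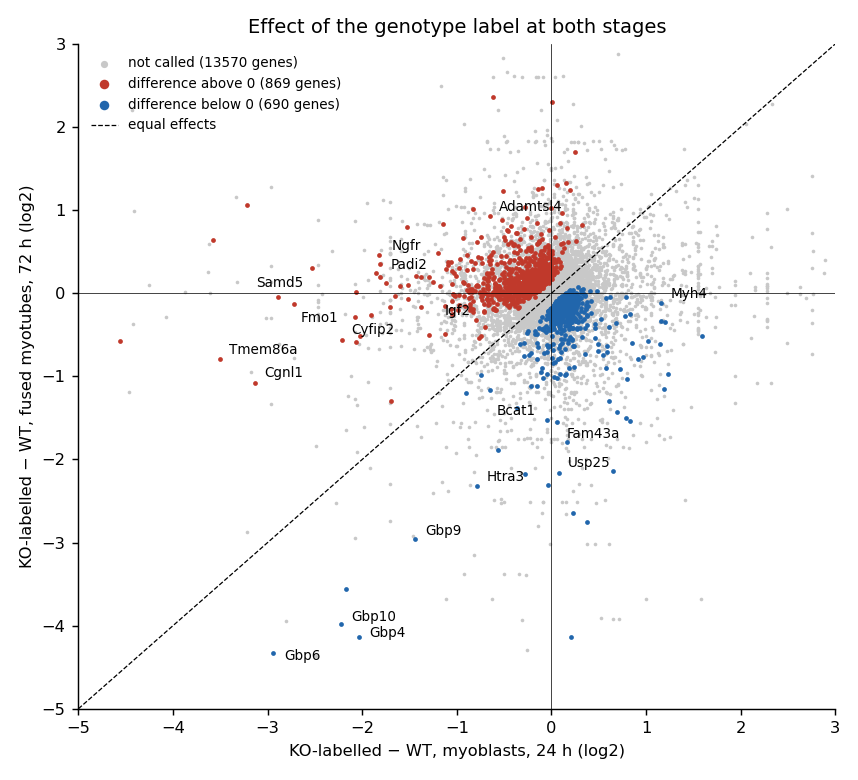
Effect of the genotype label in myoblasts (x axis, log2) against fused myotubes (y axis, log2), 1 point per gene tested; the dashed line marks equal effects and 48 genes lie outside the axes. The 869 genes in red lie above the line and the 690 in blue below it, and the Gbp genes stand apart at the lower left.

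Most of the genes named for the largest differences above 0 were far below WT in KO-labelled myoblasts and closer to it in fused myotubes. Fmo1 (chr1:162829561-162866610, minus strand) encodes a flavin-containing monooxygenase, which oxidises nitrogen- and sulfur-containing compounds. The WT myoblast libraries held 17.9, 17.5 and 16.1 CPM against 2.86, 2.94 and 1.93 CPM under the KO label. In fused myotubes the WT libraries held 34.9, 31.8, 34.2 and 28.1 CPM and the KO-labelled ones 26.8, 29.8, 30.1 and 30.6 CPM. The groups stood apart in myoblasts and overlapped in fused myotubes, with effects of -2.72 ± 0.11 and -0.13 ± 0.07 and a difference of 2.59 ± 0.13 (adjusted p = 4.3e-13).

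Cgnl1 (chr9:71626509-71771602, minus strand) encodes a cingulin-like protein of cell junctions. It stood at 31.8, 31.7 and 32.5 CPM in WT and 3.24, 4.52 and 3.27 CPM in KO-labelled myoblasts. In fused myotubes the values were 154, 148, 153 and 160.5 CPM in WT and 69.1, 73.6, 72.3 and 77.2 CPM in KO-labelled libraries. The groups did not overlap at either stage, but the effect shrank from -3.13 ± 0.08 to -1.08 ± 0.05, a difference of 2.05 ± 0.10 (adjusted p = 1.4e-13). Cyfip2, a subunit of the WAVE complex that drives actin branching, followed the same course at 7.66, 7.91 and 8.86 against 1.72, 1.73 and 1.83 CPM in myoblasts. Its fused libraries held 397, 365, 375 and 378 CPM in WT and 252, 254, 262 and 261 CPM in KO-labelled cultures, and the difference was 1.65 ± 0.11 (adjusted p = 4.8e-11). Fndc9 lies antisense within Cyfip2, and the sources used here do not give the strand setting of the counting.

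Samd5 (chr10:9622936-9675208, minus strand) had the largest difference of the genes named, 2.84 ± 0.27 (adjusted p = 5.1e-08). Myoblasts held 1.62, 1.60 and 1.54 CPM in WT and 0.258, 0.196 and 0.164 CPM in KO-labelled myoblasts, and at 9.36, 10.3, 9.87 and 10.01 CPM under the WT and 9.16, 8.73, 9.75 and 10.52 CPM under the KO label in fused myotubes. The fused libraries of the labels overlapped. Tmem86a, a membrane protein gene (chr7:47050601-47054777, plus strand), was expressed at a lower level in fused WT myotubes than in WT myoblasts. It went from 17.9, 17.7 and 18.8 CPM in WT myoblasts to 4.61, 3.87, 3.58 and 3.42 CPM in WT fused myotubes, while KO-labelled libraries were at 1.66, 1.41 and 1.70 CPM and then at 2.51, 1.83, 2.30 and 2.33 CPM. The effect went from -3.50 ± 0.11 to -0.79 ± 0.13, a difference of 2.71 ± 0.18 (adjusted p = 4.8e-11).

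Among the 10 largest that had at least 1 CPM at each stage were also Rtl3, a gene derived from a retrotransposon Gag sequence (2.16 ± 0.28), Pde7b, a cAMP phosphodiesterase (1.79 ± 0.25), and Ngfr and Adamtsl4, which are described below. Apol6, an apolipoprotein L gene, had 1.65 ± 0.29, lies antisense to the muscle gene Mb for myoglobin, and lost its call with the length offset. Padi2, which encodes a peptidylarginine deiminase, was among the 5 genes above 0 with the smallest p. Its level was 31.3, 29.3 and 30.4 CPM in WT and 15.1, 12.4 and 15.3 CPM in KO-labelled myoblasts, and at 322, 321, 319 and 276 CPM in WT and 378, 396, 397 and 391.6 CPM in KO-labelled fused myotubes. The groups stood apart at both stages, in opposite order, and the difference was 1.43 ± 0.09 (adjusted p = 4.2e-11).

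**Figure D2:**
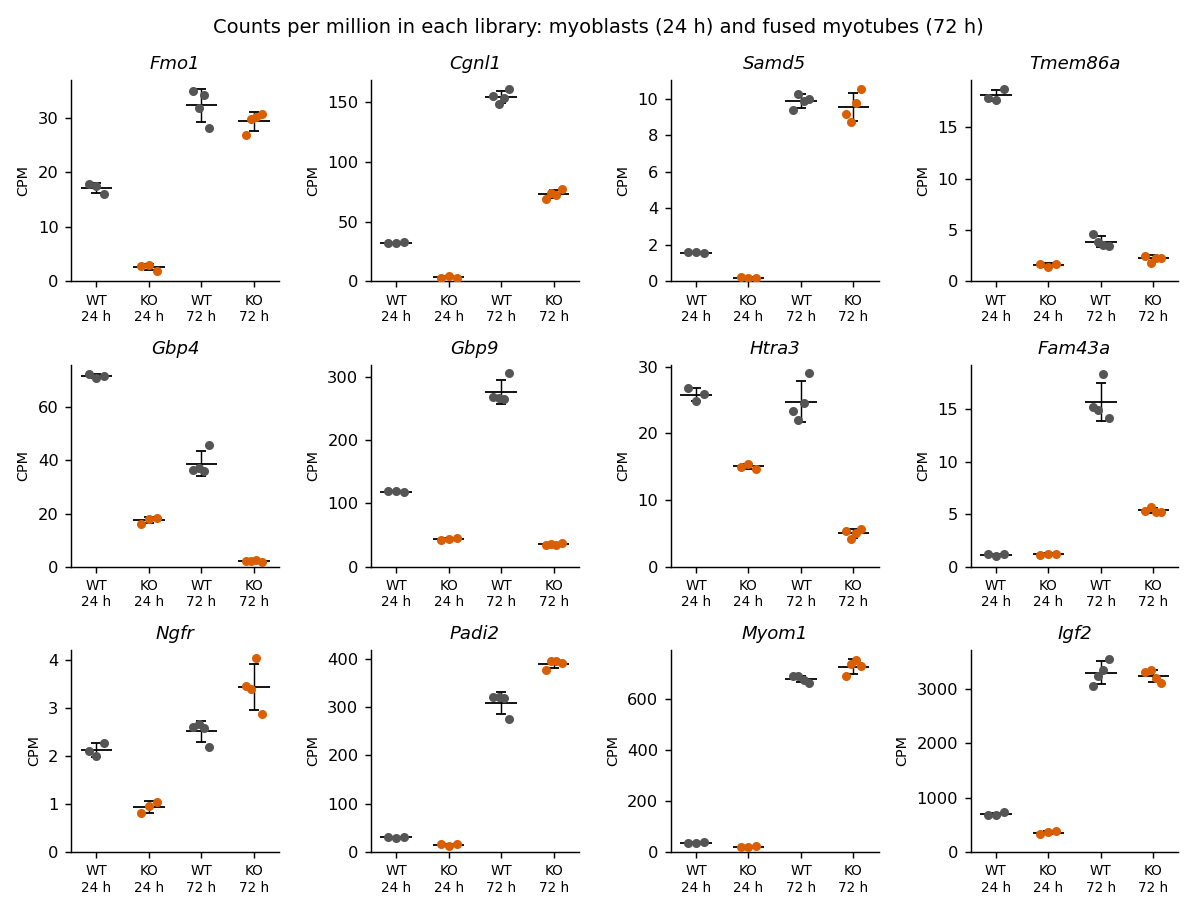
CPM in each library (points) with the group mean (line) and SD (bar) for 12 genes, WT in grey and KO-labelled in orange, at 24 h (3 libraries a group) and 72 h (4 libraries a group). The upper row shows genes low in KO-labelled myoblasts, the middle row genes low in KO-labelled fused myotubes, and the lower row genes whose order turned or whose gap closed.

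Promoter sequences are shown for the genes of smallest p in each direction that have an entry in the RefSeq promoter table (build GRCm38.p6), so that the stretch before each start site can be set beside the values. Each runs from 250 bases before to 50 bases after the start site. They lie at chr9:71771553-71771852 (minus strand), chr4:140906110-140906409 (plus strand), chr11:46312309-46312608 (minus strand) and chr5:35679731-35680030 (minus strand). Capitals mark matches, on either strand, to the E-box CANNTG that myogenic factors can bind, the muscle E-box CAGCTG (also an E-box), the TATA motif TATAAA, the CCAAT box CCAAT and the interferon response core GAAANNGAA.
Cgnl1: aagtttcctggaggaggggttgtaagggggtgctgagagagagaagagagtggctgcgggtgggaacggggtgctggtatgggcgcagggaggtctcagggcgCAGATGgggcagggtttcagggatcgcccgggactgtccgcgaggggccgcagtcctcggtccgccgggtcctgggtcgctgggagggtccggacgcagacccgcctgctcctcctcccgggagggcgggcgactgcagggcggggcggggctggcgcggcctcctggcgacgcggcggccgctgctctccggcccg
Padi2: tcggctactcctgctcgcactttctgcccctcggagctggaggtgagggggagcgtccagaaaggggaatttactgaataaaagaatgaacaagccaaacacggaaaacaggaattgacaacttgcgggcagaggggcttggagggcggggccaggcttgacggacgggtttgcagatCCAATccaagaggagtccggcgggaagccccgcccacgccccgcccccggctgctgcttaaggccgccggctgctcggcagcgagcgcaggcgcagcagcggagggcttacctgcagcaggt
Cyfip2: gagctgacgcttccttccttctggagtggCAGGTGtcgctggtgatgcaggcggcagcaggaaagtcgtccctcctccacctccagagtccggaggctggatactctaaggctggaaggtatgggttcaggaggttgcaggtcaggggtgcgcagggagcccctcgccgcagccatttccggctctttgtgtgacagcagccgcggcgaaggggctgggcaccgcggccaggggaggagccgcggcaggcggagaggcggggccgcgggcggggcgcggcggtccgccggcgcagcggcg
Htra3: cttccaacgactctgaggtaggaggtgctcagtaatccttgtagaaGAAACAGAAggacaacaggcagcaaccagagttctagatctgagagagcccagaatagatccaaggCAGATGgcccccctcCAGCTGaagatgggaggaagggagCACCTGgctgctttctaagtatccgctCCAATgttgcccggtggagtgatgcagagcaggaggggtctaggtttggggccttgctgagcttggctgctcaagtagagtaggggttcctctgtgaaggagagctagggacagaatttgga
Cgnl1 and Cyfip2 held 1 E-box each and Padi2 held 1 CCAAT box. Htra3, the only one of the 4 whose difference was below 0, held 3 E-boxes, of which 1 was CAGCTG, with 1 CCAAT box and 1 GAAANNGAA. Of all 32817 windows of this length in the table, 72.3% held an E-box, 16.3% CAGCTG, 13.6% TATAAA, 37.4% CCAAT and 8.55% GAAANNGAA. A match is a run of letters, not a site shown to be used.

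The contractile apparatus made up the broadest group above 0. Of 46 sarcomere genes tested, 25 had a difference above 0 and 2 below 0 (58.7% called, against 10.3% of all genes), with a median difference of 0.42 against -0.016. In myoblasts 31 of the 46 were lower and 1 was higher in KO-labelled libraries, with a median effect of -0.40 (6.67% lower, 4.86% higher and a median of 0.014 over all genes). In fused myotubes 6 were higher and 9 lower, with a median of -0.004 (6.33% higher, 6.68% lower and a median of -0.006 over all genes). Across the alternatives with the same filter or a stricter one, the number of members called above 0 was 22 to 27, and 2 were below.

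Myom1, which encodes the M-band protein myomesin, was at 36.0, 32.4 and 36.7 CPM in WT and 18.2, 18 and 20.9 CPM in KO-labelled myoblasts. It reached 689.5, 689, 674 and 662 CPM in WT and 689, 739, 755 and 728 CPM in KO-labelled fused myotubes. The groups stood apart in myoblasts and overlapped in fused myotubes, with a difference of 0.98 ± 0.08 (adjusted p = 1.1e-09), and Myl12a overlaps the gene on the other strand. Mylpf, the fast regulatory myosin light chain, was at 456, 422 and 473 against 251, 278 and 295 CPM in myoblasts. Its fused libraries were at 8768, 9882, 10619 and 9813 CPM in WT and 11469.6, 11723, 10981 and 10086 CPM in KO-labelled cultures, a difference of 0.90 ± 0.09 (adjusted p = 1.1e-07). Skeletal actin Acta1 (0.86), cardiac actin Actc1 (0.72), embryonic myosin Myh3 (0.76), the Z-disc protein Ldb3 (0.83) and titin (Ttn, 0.53) differed in the same direction.

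The exceptions were Myh4 and Tpm3. Myh4, the fastest adult myosin heavy chain, was higher in KO-labelled myoblasts at 3.81, 2.98 and 2.88 CPM against 1.62, 1.04 and 1.60 CPM, both low levels. Fused myotubes held 590.1, 556, 568 and 448 CPM in WT and 489, 491, 493 and 519.6 CPM in KO-labelled libraries, so the difference was -1.28 ± 0.23 (adjusted p = 4.9e-04). Myosin heavy chain genes are close copies, so part of the Myh4 counts in myoblasts could belong to another member. Tpm3, a tropomyosin, was at 502 and 509 CPM in WT and KO-labelled myoblasts and at 409 and 306 CPM in fused myotubes, a difference of -0.44 ± 0.05 (adjusted p = 5.0e-07). Some sarcomere genes were lower in KO-labelled cells at both stages, and their difference did not pass the test: slow myosin Myh7 had effects of -0.73 and -0.76, and nebulin (Neb) of -0.51 and -0.49.

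Genes of calcium handling and excitation-contraction coupling had 11 of 26 above 0 and 2 below (50%, against 10.3% of all genes), and a median difference of 0.266. Hrc, a calcium-binding protein of the sarcoplasmic reticulum, was at 10.2, 11.1 and 11.4 CPM in WT and 5.24, 6.05 and 6.84 CPM in KO-labelled myoblasts. Fused libraries held 714, 712, 707 and 699 CPM under the WT and 733, 755, 729 and 715 CPM under the KO label, with a difference of 0.91 ± 0.12 (adjusted p = 5.2e-06). Sarcalumenin (Srl, 0.66), triadin (Trdn, 0.65) and the voltage sensor Cacna1s (0.53) differed likewise. Phospholamban (Pln) had 1.16 ± 0.32, but its myoblast levels were near 1 CPM or below and its call was lost without WT myoblast replicate 1, without replicate 3 of either label, and with the length offset. The calcium store protein Casq1 went the other way (-0.63), since it was higher in KO-labelled myoblasts (4.95 and 7.44 CPM, WT first), and so did the calcium pump Atp2a2 (-0.18), which was lower in KO-labelled fused myotubes only.

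**Figure D3:**
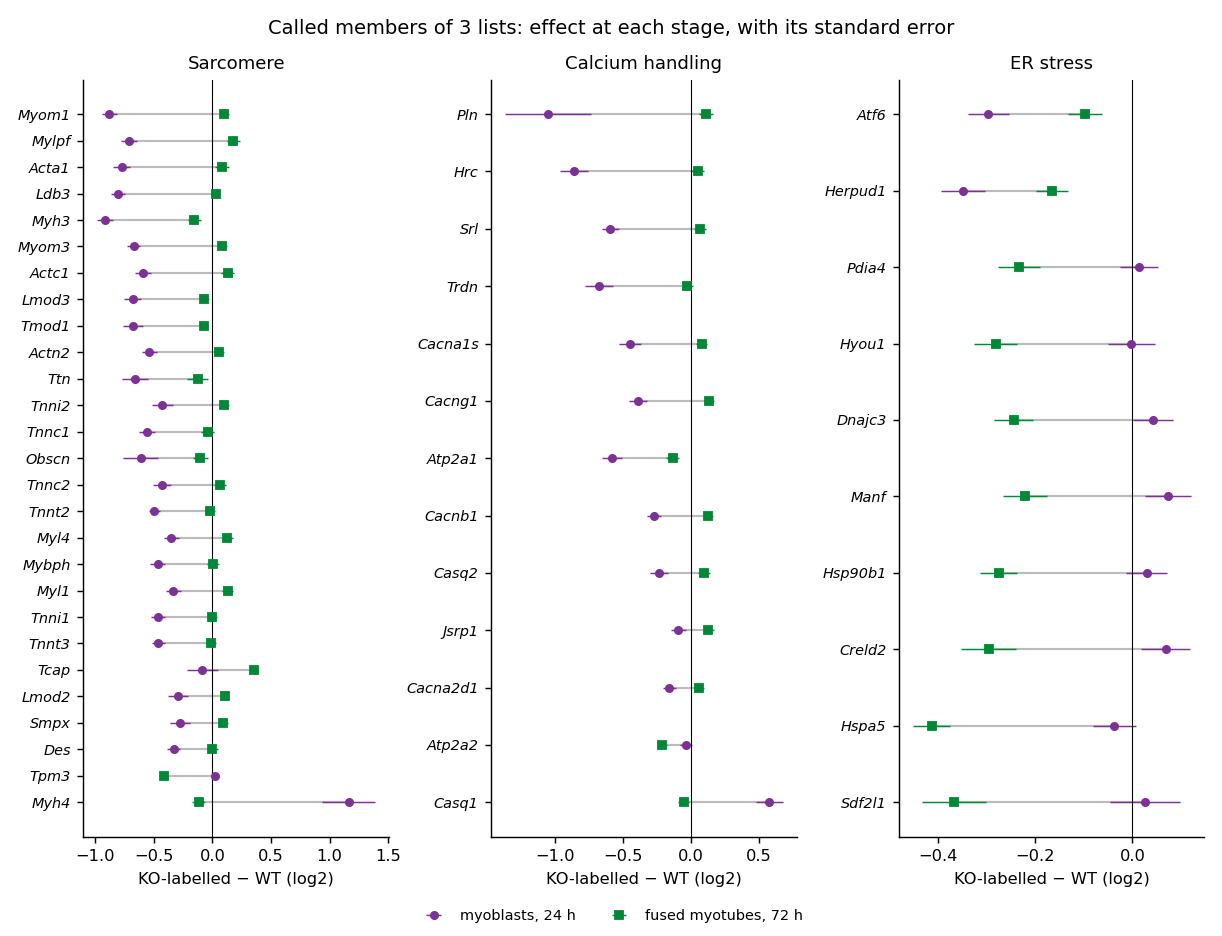
Effect of the genotype label (log2, x axis) in myoblasts (circles) and fused myotubes (squares), with SE, for members of 3 lists whose difference was called. Most sarcomere and calcium genes lie left of 0 in myoblasts and closer to 0 in fused myotubes, with Myh4, Tpm3, Casq1 and Atp2a2 as the members that go the other way; 8 of the 10 ER stress genes lie left of 0 in fused myotubes and near 0 in myoblasts.

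Of 20 myogenic transcription factors, 5 differed above 0 and 1 below (30%, against 10.3% of all genes). Myogenin (Myog), which drives entry into differentiation, was at 118, 104 and 119 CPM in WT and 64.6, 73.5 and 82.5 CPM in KO-labelled myoblasts, and at 829, 865, 894 and 953 CPM under the WT and 898, 884, 848 and 893 CPM under the KO label in fused myotubes. Only the myoblast groups stood apart, and the difference was 0.62 ± 0.09 (adjusted p = 3.3e-05). Mef2c, a partner of the myogenic factors, went from 34.9, 30.99 and 33.5 against 23.5, 24.9 and 26.5 CPM to 2270.0, 2209, 2212 and 2378 against 2345, 2543, 2633 and 2625 CPM, with a difference of 0.57 ± 0.08 (adjusted p = 2.3e-05). Mef2a was lower at both stages (-0.77 and -0.54), with a difference of 0.23 ± 0.05. Myf5, which marks committed dividing myoblasts, was the member below 0: 83.2 and 83.9 CPM in WT and KO-labelled myoblasts, 125 and 100.3 CPM in fused myotubes, and a difference of -0.33 ± 0.06.

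Of 16 genes of fusion and membrane repair, 8 differed above 0 and none below (50%, against 10.3% of all genes). Mymk (myomaker), without which myoblasts do not fuse, was at 62.7, 57.7 and 64.8 CPM in WT and 42.4, 44.3 and 49.4 CPM in KO-labelled myoblasts. It was at 1635, 1728, 1761 and 1869 CPM under the WT and 1794, 1761, 1729 and 1680.0 CPM under the KO label in fused myotubes, with a difference of 0.44 ± 0.08 (adjusted p = 5.2e-04). The adhesion protein Ncam1 had 0.51 ± 0.08 and the junction protein Jam2 0.43 ± 0.07. Jam2 was called higher in KO-labelled fused myotubes (212 and 256 CPM, WT first) and not in myoblasts. Of 13 genes of the neuromuscular junction only Colq, the collagen tail of acetylcholinesterase, was called (7.69%, a share near that of all genes), at 1.53 and 0.746 CPM in WT and KO-labelled myoblasts and 106 and 137 CPM in fused myotubes (1.46 ± 0.23).

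Myotube markers moved with these groups. The 9 markers summed to 1611 to 1821 CPM in WT and 946 to 1113 CPM in KO-labelled myoblasts, and 7 of the 9 were themselves called (Myog, Mymk, Acta1, Myh3, Mylpf, Tnnt3 and Ttn), several of which the lists above also hold. Over all genes 10.3% were called. In bulk RNA, fewer cells of a type and less RNA per cell cannot be told apart, and the part of the markers in these results was not tested. Fibroblast markers summed to 127 to 132 CPM in WT and 91.7 to 93.2 CPM in KO-labelled myoblasts, and to 248 to 319 and 289 to 304 CPM in fused myotubes. Gsn made up most of that sum and was the only one of the 9 fibroblast markers called; 3 of the 9 passed the filter on low counts, and 1 (Dpt) was at 0 in all 14 libraries. Smooth muscle and pericyte markers summed to 102 to 107 CPM in WT and 88.3 to 89.6 CPM in KO-labelled myoblasts, and to 184 to 194 and 182 to 195 CPM in fused myotubes.

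Of the 10 genes named for the most negative differences, 5 lay in 1 gene cluster. The guanylate-binding proteins are GTPases that interferon induces and that coat vacuoles holding microbes. Of 7 tested, 5 had a difference below 0 (71.4%, against 4.56% of all genes), all in the chromosome 5 cluster: Gbp4, Gbp6, Gbp8, Gbp9 and Gbp10. Each was lower in KO-labelled libraries at both stages, and the gap was wider in fused myotubes. The count was 5 under every alternative that kept the filter or made it stricter.

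Gbp9 (chr5:105077630-105139539, minus strand) was at 119, 119.5 and 118 CPM in WT and 41.7, 44.2 and 44.8 CPM in KO-labelled myoblasts. In fused myotubes WT libraries held 269, 266, 266 and 306 CPM and KO-labelled ones 34.6, 36.3, 34.8 and 37.5 CPM. The WT level was higher after fusion while the KO-labelled level was not, and the effect went from -1.45 ± 0.05 to -2.96 ± 0.05, a difference of -1.51 ± 0.07 (adjusted p = 4.2e-14). Gbp6 (chr5:105270702-105293698, minus strand) was at 47.6, 51.9 and 49.6 CPM in WT and 5.64, 6.05 and 7.79 CPM in KO-labelled myoblasts, then at 783, 803, 751 and 794 CPM in WT and 39.2, 39.4, 40.8 and 36.6 CPM in KO-labelled fused myotubes. Its difference was -1.38 ± 0.10 (adjusted p = 7.8e-10).

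Gbp4 (chr5:105115767-105139586, minus strand) was lower in fused myotubes than in myoblasts under both labels, at 72.5, 71.0 and 71.7 and then 36.3, 37.0, 36.2 and 45.7 CPM in WT, and at 16.2, 18.03 and 18.3 and then 2.07, 2.28, 2.47 and 1.86 CPM in KO-labelled libraries. Its effect grew from -2.04 ± 0.06 to -4.14 ± 0.10, a difference of -2.10 ± 0.13 (adjusted p = 4.2e-11). Gbp10 (-1.75 ± 0.21) and Gbp8 (-1.38 ± 0.24) differed likewise. Gbp11 was lower at both stages and its difference of -1.88 ± 0.82 did not pass (adjusted p = 0.16). Gbp3, of the chromosome 3 cluster, was under 1 CPM in every group.

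These genes are close copies, and Gbp4, Gbp8 and Gbp9 overlap, so reads can be exchanged between them. Summed over the 6 chromosome 5 genes, the level was 254 to 259 CPM in WT and 66.3 to 74.6 CPM in KO-labelled myoblasts. It was 1111 to 1207 CPM in WT and 79.2 to 83.1 CPM in KO-labelled fused myotubes. Of 31 other genes of the interferon response, 3 differed above 0 and none below (9.68%, near the share of all genes), namely the class I antigen genes H2-K1 (0.50) and B2m (0.30) and the receptor chain Ifngr2 (0.32), with H2-K1 lost under the length offset.

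Outside that cluster, Htra3 (chr5:35652023-35679782, minus strand), a secreted serine protease, was at 26.8, 24.8 and 25.9 CPM in WT and 14.98, 15.5 and 14.7 CPM in KO-labelled myoblasts. After fusion WT libraries held 23.4, 22.0, 24.6 and 29.1 CPM and KO-labelled libraries 5.33, 4.12, 4.98 and 5.59 CPM, a difference of -1.54 ± 0.12 (adjusted p = 1.2e-09). Fam43a was level in myoblasts, at 1.195, 0.994 and 1.17 CPM in WT and 1.09, 1.21 and 1.24 CPM in KO-labelled libraries. Fused myotubes held 15.2, 14.97, 18.4 and 14.2 CPM in WT and 5.33, 5.67, 5.24 and 5.20 CPM in KO-labelled libraries, with a difference of -1.61 ± 0.22 (adjusted p = 1.5e-05). The WT and KO-labelled fused libraries of both genes stood well apart.

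Bcat1 and Socs2 were expressed at much higher levels in myoblasts than in myotubes. Bcat1, the cytosolic aminotransferase that moves amino groups between branched-chain amino acids and glutamate, was at 111, 116 and 111 CPM in WT and 114, 109.6 and 105 CPM in KO-labelled myoblasts. Fused libraries held 3.61, 4.50, 3.27 and 2.51 CPM in WT and 1.00, 1.28, 1.41 and 0.866 CPM in KO-labelled libraries, a difference of -1.48 ± 0.21 (adjusted p = 2.3e-05). Socs2, an inhibitor of growth hormone and cytokine signalling, was at 153, 151 and 148 against 165, 171 and 168 CPM in myoblasts and 8.17, 8.25, 8.76 and 10.01 against 4.58, 4.62, 4.43 and 4.39 CPM in fused myotubes (-1.13 ± 0.09, adjusted p = 2.5e-09), so it was higher in KO-labelled myoblasts and lower in KO-labelled fused myotubes. Col8a1, a short-chain collagen, had -1.32 ± 0.38, and left the calls without WT fused replicate 1 or without KO-labelled fused replicate 1 or 2. Usp25, a deubiquitinase, had the most negative value (-2.24 ± 0.57), but its fused libraries scattered, at 4.88, 1.46, 2.16 and 7.95 CPM in WT and 0, 0.445, 1.92 and 1.33 CPM in KO-labelled cultures, and the call was lost without WT fused replicate 4, with the length offset and in the DESeq2 test.

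For 166 genes the direction turned. Ngfr, the p75 neurotrophin receptor (chr11:95568818-95587735, minus strand), was at 2.11, 1.99 and 2.27 CPM in WT and 0.802, 0.949 and 1.05 CPM in KO-labelled myoblasts. After fusion the order was the opposite, with 2.60, 2.66, 2.59 and 2.18 CPM in WT and 3.45, 3.39, 4.04 and 2.86 CPM in KO-labelled libraries. Neither stage had overlapping groups, and effects of -1.19 ± 0.18 and 0.48 ± 0.14 gave a difference of 1.67 ± 0.23 (adjusted p = 1.9e-05). Gpr37, an orphan receptor abundant in nerve tissue, turned from 7.59, 5.96 and 6.88 against 4.10, 4.55 and 4.65 CPM to 50.2, 47.3, 48.7 and 45.8 against 64.3, 67.7, 68.0 and 64.3 CPM (1.10 ± 0.11, adjusted p = 1.2e-07). Synpo, an actin-binding protein, had effects of -0.74 and 0.67. Adamtsl4, a matrix protein, had -0.65 and 0.93 and lost its call in the difference with the length offset.

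Myl12b, a regulatory light chain of non-muscle myosin, is the last of the 5 named as lower and then higher, at 50.4 and 32.9 CPM in myoblasts and 18.4 and 25.9 CPM in fused myotubes (WT first). It overlaps a second gene model with the same symbol and lies beside its close copy Myl12a, so its counts are uncertain. The sum of the 3 was 840 to 901 CPM in WT and 812 to 839 CPM in KO-labelled myoblasts, and 968 to 1081 and 1193 to 1297 CPM in fused myotubes. Other genes were higher and then lower. Zbtb48, a telomere-binding zinc finger protein, was at 5.34, 6.01 and 4.91 CPM in WT and 7.48, 6.35 and 6.81 CPM in KO-labelled myoblasts, and at 3.29, 3.74, 3.15 and 3.96 CPM under the WT and 2.13, 2.17, 2.17 and 2.06 CPM under the KO label in fused myotubes (-1.08 ± 0.17, adjusted p = 1.1e-04). Rasgrp3, an activator of Ras proteins (-0.77 ± 0.15), the snoRNA host gene Snhg12 (-0.72 ± 0.14), Plcxd2 (-0.65 ± 0.11) and the zinc finger gene Zfp202 (-0.60 ± 0.12) turned likewise. Rasgrp3 and Snhg12 left the calls with the length offset, and Zbtb48 when the offset was joined to the replicate block.

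**Figure D4:**
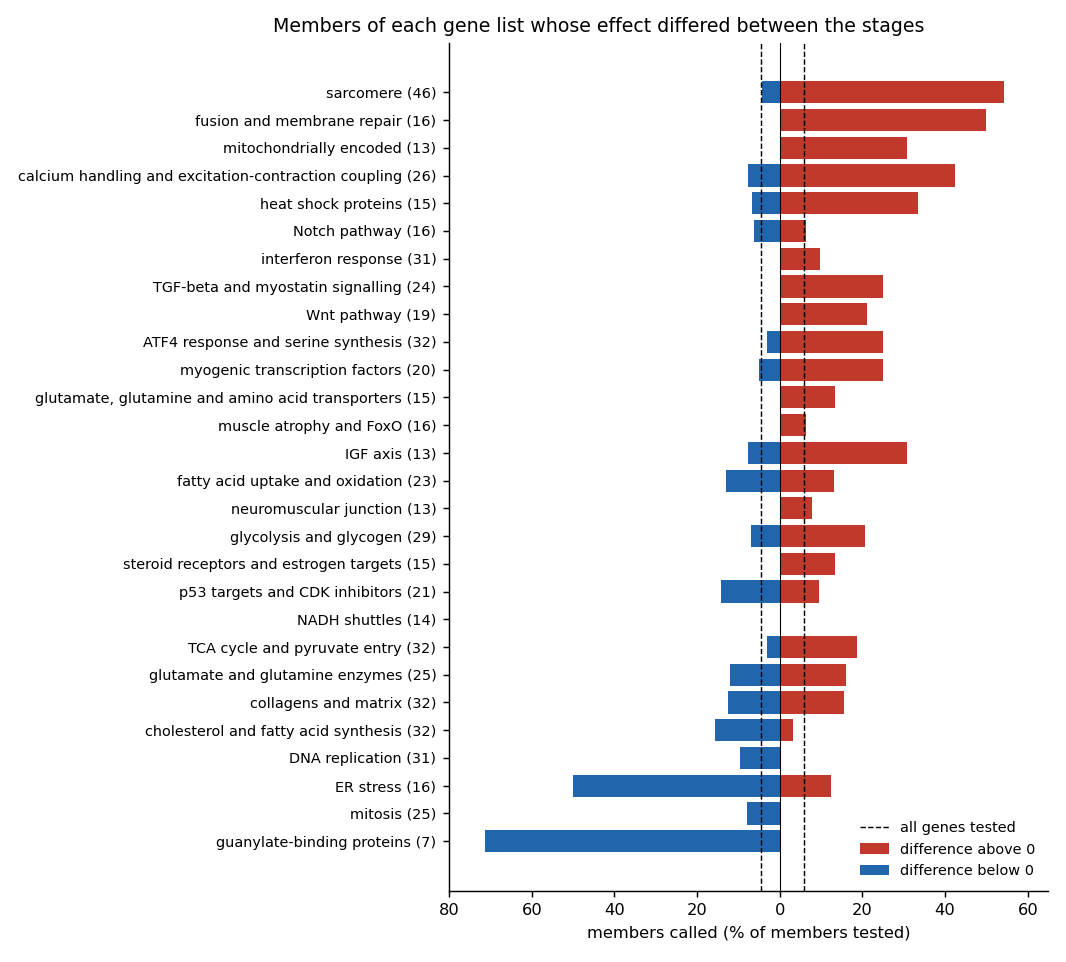
Members of each list called in the difference of effects, as a percentage of the members tested (number in brackets), above 0 to the right and below 0 to the left; dashed lines mark 5.74% and 4.56%, the shares over all genes. Lists are ordered by their median difference, from sarcomere at the top to guanylate-binding proteins at the bottom.

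Chaperones of the endoplasmic reticulum were lower in KO-labelled cells after fusion. Cells induce these genes when unfolded proteins build up in that compartment. Of 16 ER stress genes, 8 had a difference below 0 and 2 above (62.5%, against 10.3% of all genes), with a median of -0.246. None was higher and 12 were lower in KO-labelled fused myotubes, against 3 lower in myoblasts, where the shares lower over all genes were 6.68% and 6.67%. Hspa5, the major chaperone of the compartment, was at 434, 410.0 and 404 CPM in WT and 410.5, 394 and 412 CPM in KO-labelled myoblasts. Its fused libraries stood at 602, 620.1, 573 and 570.4 CPM in WT and 437, 455, 460.1 and 425 CPM in KO-labelled cultures, where the groups stood apart (-0.38 ± 0.06, adjusted p = 8.2e-05). Creld2 (-0.36 ± 0.08), the co-chaperone Sdf2l1 (-0.39 ± 0.10), Hsp90b1 (-0.30) and Hyou1 (-0.28) differed in the same direction, and Sdf2l1 lost its call when the offset was joined to the replicate block. The 2 above 0, Herpud1 (0.18) and the sensor Atf6 (0.20), were lower in KO-labelled myoblasts (-0.35 and -0.30), and with the length offset no member was above 0.

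Genes of the ATF4 response, which supplies amino acids under stress, were mostly above 0 where called. Of 32 tested, 8 differed above 0 and 1 below (28.1%, against 5.74% above and 4.56% below over all genes), with a median of 0.132, and the number above 0 was 5 to 12 over the alternatives. In myoblasts 15 were lower and none higher in KO-labelled libraries, in fused myotubes 7 were higher and 7 lower, and at 48 h 1 was higher and 14 lower. Over all genes 6.67% were lower in myoblasts, 6.33% higher and 6.68% lower in fused myotubes, and 14.1% lower at 48 h. Atf5, a factor related to ATF4, was at 142, 132 and 133 CPM in WT and 119, 126 and 116 CPM in KO-labelled myoblasts, then at 102, 107, 116 and 123 CPM under the WT and 154, 158, 147 and 143 CPM under the KO label in fused myotubes (0.60 ± 0.07, adjusted p = 2.1e-06). Mthfd2, of mitochondrial one-carbon metabolism, was at 149.5, 148 and 145 against 138, 137 and 137 CPM and then 66.4, 71.3, 70.8 and 73.8 against 94.6, 93.6, 98.2 and 89.0 CPM (0.51 ± 0.05, adjusted p = 2.7e-07). In both genes the KO-labelled fused libraries all lay above the WT ones. Asparagine synthetase (Asns, 0.42 ± 0.05) and the serine enzyme Psat1 (0.35 ± 0.06) were also called, and Psat1 lost its call when the offset was joined to the replicate block. So were 4 tRNA synthetase genes, Aars, Gars, Sars and Iars, at 0.18 to 0.25, while Vegfa was the member below 0 (-0.22).

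Glud1 itself belongs to the enzymes of glutamate and glutamine, of which 4 of 25 differed above 0 and 3 below (28%, against 10.3% of all genes). Besides Asns and Psat1, the proline and ornithine enzyme Aldh18a1 (0.31) and the mitochondrial branched-chain aminotransferase Bcat2 (0.22) were above 0. Those below 0 included Bcat1 and Cad of pyrimidine synthesis (-0.27). Over the alternatives the list had 1 to 5 calls above and 1 to 4 below 0. Among 15 amino acid transporters only Slc1a4 (0.45, lost with the length offset and replicate block together) and Slc7a5 (0.28, lost with the length offset) were called (13.3%, a share near that of all genes), and of 14 genes of the NADH shuttles none was called under any setting that kept the filter or made it stricter.

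In the TCA cycle and pyruvate entry 6 of 32 genes differed above 0 and 1 below (21.9%, against 10.3% of all genes). With the length offset 2 were above 0 and none below. The genes above 0 in the reported fit included 3 kinases that shut off pyruvate dehydrogenase. Pdk4 was at 45.3, 43.4 and 43.7 CPM in WT and 41.2, 42.6 and 44.9 CPM in KO-labelled myoblasts, and at 126, 126, 122 and 132 CPM under the WT and 161, 169.9, 161 and 155 CPM under the KO label in fused myotubes, where the groups stood apart (0.40 ± 0.06, adjusted p = 5.8e-05). Pdk3 (0.38) and Pdk2 (0.36) lost their calls with the length offset. Of the 13 mitochondrially encoded genes 4 were above 0 (30.8%, against 5.74% of all genes), led by mt-Nd3 of complex I (0.37 ± 0.07), with a list median of 0.277. The number called ranged from 2 (with the length offset, or without any 1 of several libraries) to 6 (with the replicate block, or without WT fused replicate 4 or KO-labelled fused replicate 1), and was 12 with no filter. Among the others, mt-Atp6 (0.35) and mt-Cytb (0.35) lost their calls with the length offset and without single libraries (any 1 of 6 and 10 of the 14).

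Glycolysis and glycogen genes had 6 of 29 above 0 and 2 below (27.6%, against 10.3% of all genes). Those above with the largest values are muscle enzymes or carriers: Pgam2 (0.60 ± 0.10), glycogen phosphorylase Pygm (0.57 ± 0.09) and the lactate carrier Slc16a3 (0.99 ± 0.31), which was under 1 CPM in myoblasts and lost its call with the length offset and without any 1 of 10 libraries. Fatty acid uptake and oxidation had 3 of 23 on each side (26.1%), with the muscle fatty acid-binding protein Fabp3 (0.74 ± 0.13) and lipoprotein lipase (Lpl, 0.70) above and the uncoupling protein Ucp2 (-0.67 ± 0.15) below. Over the alternatives the list had 1 to 3 calls on each side, and 1 on each side with the length offset. The Lpl call was lost with the length offset and without any 1 of 9 libraries. In cholesterol and fatty acid synthesis 1 of 32 was above and 5 below 0 (18.8%). Idi1 of isoprenoid synthesis was at 40.0, 39.9 and 38.8 CPM in WT and 46.8, 50.9 and 50.4 CPM in KO-labelled myoblasts, and at 80.1, 83.9, 78.0 and 72.7 CPM under the WT and 74.2, 77.8, 83.0 and 79.6 CPM under the KO label in fused myotubes (-0.31 ± 0.07). Insig1 (-0.35), Lss (-0.35) and Hsd17b7 (-0.30) were also below 0, of which Lss lost its call with the length offset.

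In the IGF axis 6 of 13 genes were lower in KO-labelled myoblasts and 2 in fused myotubes, and none was higher, beside 6.67% and 6.68% lower over all genes. Igf2, a growth factor that promotes differentiation, was at 671, 674 and 729 CPM in WT and 319, 360.5 and 378 CPM in KO-labelled myoblasts. After fusion it reached 3061, 3256, 3353 and 3565 CPM in WT and 3319, 3356, 3215 and 3111 CPM in KO-labelled cultures. The groups stood apart in myoblasts and overlapped in fused myotubes, with a difference of 0.95 ± 0.08 (adjusted p = 1.5e-08), and Igf2os overlaps the gene on the other strand. In the difference 4 of the 13 were above 0 and 1 below (38.5%, against 10.3% of all genes): the binding proteins Igfbp2 (0.70) and Igfbp5 (0.49) and the imprinted RNA H19 (0.29) were above, and Igfbp3 (-0.25) below.

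TGF-beta and myostatin signalling had 6 of 24 genes above 0 and none below (25%, against 10.3% of all genes). Mstn, the secreted inhibitor of muscle growth, was at 5.55, 6.18 and 5.51 CPM in WT and 2.95, 3.44 and 3.63 CPM in KO-labelled myoblasts, and at 135, 141, 141 and 137 CPM under the WT and 145, 148, 157 and 144 CPM under the KO label in fused myotubes (0.88 ± 0.11, adjusted p = 2.2e-06). The ligands Tgfb1 (0.67), Tgfb2 (0.80) and Tgfb3 (0.43), the antagonist follistatin (Fst, 0.50) and Ccn1 (0.28) were the others. Of 19 Wnt pathway genes 4 were above 0 and none below (21.1%, against 10.3% of all genes). Wnt4 was at 2.85, 2.81 and 2.81 CPM in WT and 1.17, 0.753 and 1.31 CPM in KO-labelled myoblasts, then at 15.8, 16.2, 17.4 and 15.9 CPM under the WT and 17.4, 20.7, 17.5 and 19.2 CPM under the KO label (1.57 ± 0.17, adjusted p = 5.3e-07). Rspo3 (1.87 ± 0.40), which strengthens Wnt signals and was near or under 0.5 CPM in myoblasts, Wnt5a (1.17) and the receptor Fzd4 (0.50) completed them, and Wnt5a lost its call with the length offset.

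In the Notch pathway 1 of 16 differed above 0, the effector Rbpj (0.29), and 1 below, the ligand Jag1 (-0.69), which is 12.5% beside 10.3% of all genes; neither kept its call with the length offset, and Jag1 lost it without any 1 of 6 libraries. Among 15 steroid receptors and estrogen targets Nr3c2, the mineralocorticoid receptor (0.68, lost with the length offset and without WT myoblast replicate 2), and Pgr, the progesterone receptor, were above 0 (13.3%, near the share of all genes). Pgr averaged 3.71 and 0.0109 CPM in WT and KO-labelled myoblasts and 0.932 and 0.0989 CPM in fused myotubes, and since KO-labelled myoblasts held almost no reads of it no fold is given.

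Part of the genes of cell division were higher in KO-labelled myoblasts. Of 31 DNA replication genes 10 were higher and none lower there, and of 25 mitosis genes 10 were higher and none lower, beside 4.86% higher and 6.67% lower over all genes. In fused myotubes 4 replication genes were higher and 1 lower, beside 6.33% higher and 6.68% lower over all genes. Myotube markers were lower in KO-labelled myoblasts (946 to 1113 CPM against 1611 to 1821 CPM in WT), and their part in this was not tested. The difference was below 0 for 3 replication genes (9.68%) and 2 mitosis genes (8%), beside 4.56% of all genes, and for none above 0. The median difference was -0.157 for replication and -0.458 for mitosis genes, and the median effect of the mitosis genes went from 0.134 in myoblasts to -0.299 in fused myotubes, where none was called. They were Mcm6, Mcm7 and Rrm2 in the first and Cdk1 and Kif11 in the second. Rrm2, which makes deoxyribonucleotides, was at 505, 476 and 492 CPM in WT and 581, 559 and 564 CPM in KO-labelled myoblasts, and at 13.8, 14.5, 15.9 and 16.4 CPM under the WT and 13.7, 14.01, 14.2 and 14.2 CPM under the KO label in fused myotubes (-0.32 ± 0.07). Cdk1, the kinase of mitotic entry, was at 234, 228 and 224 against 271, 258 and 264 CPM in myoblasts and 3.38, 3.17, 2.96 and 2.23 against 2.26, 2.11, 2.30 and 2.60 CPM in fused myotubes (-0.54 ± 0.14), and left the calls without WT fused replicate 1. With the length offset no replication gene was called, and the calls of the helicase subunit Mcm6 and the spindle motor Kif11 were lost without any 1 of 6 and 11 libraries and in the DESeq2 test. Kif11 was also lost with the replicate block, with DESeq2's size factors and with only the 14 libraries.

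Of 21 p53 targets and CDK inhibitors 2 were above 0 and 3 below (23.8%, against 10.3% of all genes). The CDK inhibitor Cdkn2b was at 12.1, 12.3 and 13.2 CPM in WT and 9.74, 10.3 and 10.7 CPM in KO-labelled myoblasts. Its fused libraries held 33.5, 38.0, 37.9 and 31.6 against 43.7, 42.6, 37.3 and 36.1 CPM, where the groups overlapped (0.48 ± 0.11). The antiproliferative gene Btg2 was the other member above 0 (0.25), a call lost with the length offset and without any 1 of 7 libraries. Plk2, a p53 target, was higher in KO-labelled myoblasts and not called in fused myotubes, at 141, 144 and 130.4 CPM in WT and 188, 179.7 and 183 CPM in KO-labelled libraries (-0.38 ± 0.06). Mdm2 (-0.19) and Eda2r (-0.21) were also below 0. Collagens and matrix genes split, with 5 of 32 above and 4 below (28.1%), and with 2 to 6 above and 2 to 7 below over the alternatives. Among those above 0, Col5a3 had the largest value (1.17 ± 0.34), at 10.2 and 8.52 CPM in WT and KO-labelled myoblasts and 0.333 and 0.660 CPM in fused myotubes. Its call was lost with the length offset and without any 1 of 4 fused libraries. The basement membrane collagens Col4a1 (15.9 and 21.5 CPM, WT first) and Col4a2 (22.9 and 33.8 CPM) were higher in KO-labelled fused myotubes and not called in myoblasts. The glycoproteins Thbs1 (-0.71) and Tnc (-0.83) were below 0 along with Col8a1 and Col1a2, and the Col1a2 call was lost with the length offset and without any 1 of 9 libraries.

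The 48 h libraries, which are no part of the difference, give the effect between these stages. At 48 h 3813 of the 15129 genes (25.2%) differed between the labels, 1675 (11.1%) with a higher and 2138 (14.1%) with a lower level in the 2 KO-labelled libraries. Of the 355 genes that were lower in KO-labelled myoblasts and not called in fused myotubes, 93 (26.2%) were higher at 48 h and 62 (17.5%) were lower. Of the 310 called lower in fused myotubes alone, 122 (39.4%) were lower at 48 h and 11 (3.55%) higher. Of the 295 called higher in fused myotubes alone, 89 (30.2%) were higher and 57 (19.3%) lower. These overlaps were not tested.

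Fmo1 was not called at 48 h, at 40.3, 37.5 and 38.4 CPM in WT and 31.9 and 35.3 CPM in KO-labelled libraries (-0.20 ± 0.08, adjusted p = 0.078). Cgnl1 had an effect of -1.11 ± 0.06, beside -1.08 at 72 h, and Samd5 was higher in KO-labelled libraries (0.83 ± 0.12). Tmem86a was far lower in KO-labelled libraries at 48 h as well (-2.96 ± 0.22). Gbp4 (-2.02 ± 0.09), Gbp6 (-2.72 ± 0.07) and Gbp9 (-1.57 ± 0.06) were lower at 48 h too, beside effects of -2.04, -2.94 and -1.45 at 24 h and -4.14, -4.32 and -2.96 at 72 h. Of the 46 sarcomere genes 21 were higher and 4 lower at 48 h (median 0.185), and of the 16 ER stress genes 13 were lower and none higher. Of the mitosis genes 22 of 25 were lower at 48 h. These counts stand beside 11.1% higher and 14.1% lower over all genes at 48 h.

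**Figure D5:**
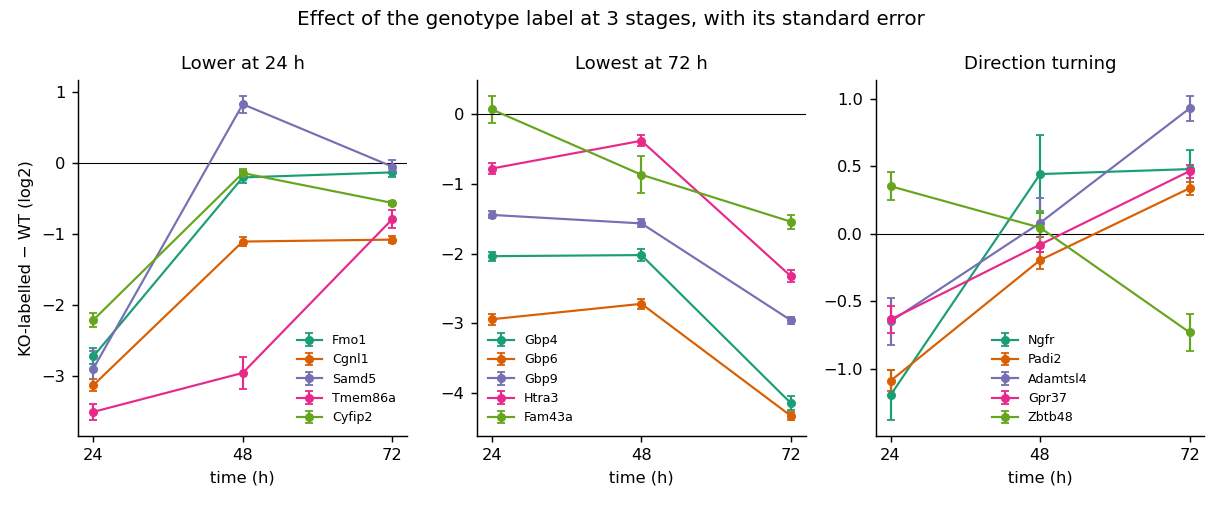
Effect of the genotype label (log2 ± SE) at 24 h, 48 h and 72 h for 15 genes from the named set, chosen as examples after their values were seen. Fmo1 and Cyfip2 lie near 0 at 48 h and Samd5 above it, Gbp4, Gbp6 and Gbp9 are lowest at 72 h, and the 5 genes at the right cross 0.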

How the data were processed

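RNA of 19 mouse myoblast and myotube cultures was sequenced. A Qiagen RNeasy plus micro kit and Illumina TruSeq mRNA libraries were used, per the labels' protocols. The submitters' processing notes name bcl2fastq 2.20, fastp 0.20.0, kallisto 0.46.1, edgeR 3.36 and build GRCm38.p6. Per the file headers, the authors deposited an estimated count, a TPM and an effective length for each transcript. The deposited TPM values entered no test. The strand setting of the counting is not given in the sources used here.

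Estimated counts were summed per gene by transcript identifier (GENCODE M21; 121104 of 121843 transcripts matched, and the others held 0.244% to 0.496% of counts) and rounded. All 6 groups were fitted together in edgeR 4.0.16 (R 4.3.3) with TMM scaling, filterByExpr and the quasi-likelihood test. P-values were adjusted over 15129 genes (Benjamini-Hochberg) and called under 0.05. The contrast was (KO-labelled - WT in fused myotubes) - (KO-labelled - WT in myoblasts), and standard errors are the log2 difference over the square root of F. The script was tested on simulated data. No pair of replicates was a copy.

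Genes were named among those called with a symbol, at least 1 CPM on average in 1 group of each stage and more than 3 counts per library on average in all 4 groups. They are the 10 largest differences and the 5 smallest p in each direction, the 5 strongest reversals of each kind, 3 effects that grew and 3 that shrank in 1 direction, up to 3 called members of each list, and Glud1. The list members had to be called and to pass the minimum of counts, but not that of 1 CPM. Glud1 was named without a call. Other list members are named as examples or to complete a count. The members and gene lists were chosen with earlier results of these data known, and the comparison at 48 h was added after the data were seen. Alternatives were other scalings (DESeq2 1.42.0 size factors, library size), the DESeq2 test, other filters, only the 14 libraries, an offset for effective length, the replicate number as a block, and each library left out in turn. Promoters come from RefSeq, and genes without an entry are named only. A few list members are not reported here.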

Additional observations from a re-analysis of the deposited data

Results flagged for a closer look

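The effect of the genotype label differed between myoblasts and fused myotubes for 1559 genes, by the test of the difference itself. Every gene called in the report meets that standard by construction, so only the 5 genes of each kind of reversal that the naming rule took are repeated here. That rule ranks reversals by the smaller of their 2 effects, and other named genes, such as Padi2, Colq and Socs2, also turned. Lower and then higher in KO-labelled libraries were Ngfr, with a difference of 1.67 (log2), Adamtsl4 with 1.58, Synpo with 1.42, Myl12b with 1.11 and Gpr37 with 1.10. Higher and then lower were Zbtb48 with -1.08, Rasgrp3 with -0.77, Snhg12 with -0.72, Plcxd2 with -0.65 and Zfp202 with -0.60.

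Single libraries stood apart from the other 3 of their group in 7 of 62 sets of 4 checked, where chance flags about 1 in 20 sets. The sets are not independent, since genes share libraries and Gbp4, Gbp8 and Gbp9 overlap and can exchange reads. WT fused replicate 4 held 5 of the 7: Ngfr at 2.18 CPM and Padi2 at 276 CPM were the lowest of their group, and Gbp4 at 45.7 CPM, Gbp8 at 22.9 CPM and Gbp9 at 306 CPM the highest. Without that library all 5 differences kept their calls. KO-labelled fused replicate 2 had the highest Pde7b value of its group, 2.84 CPM, and KO-labelled fused replicate 3 the highest Glud1 value, 139 CPM.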

How the results depend on the processing

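Of the genes called both under an alternative and in the reported fit, none had the other sign. Every alternative used the same counts, so a change of sign was hardly possible and this is no check of the results. The offset for effective transcript length changed the counts most: 664 genes were called (445 above and 219 below 0), with 585 in myoblasts, 824 in fused myotubes and 35 in opposite directions. With the offset and the replicate block together 573 were called (401 and 172), with 534, 729 and 26. The cause was not tested. The other scalings, filters and the DESeq2 test gave 1418 to 1644 genes, and only the 14 libraries 1777. Leaving out 1 library in turn gave 1051 to 1555 genes (604 to 833 above, 447 to 722 below), 920 to 1837 in myoblasts, 1387 to 1954 in fused myotubes and 95 to 170 in opposite directions. The lowest count, 1051, was without WT myoblast replicate 3. Of the 96 named genes called, 64 kept their call under every alternative, 26 lost it with the length offset, and 17 lost it only with an offset.

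Replicate numbers did not pair the libraries: correlations of deviations were -0.061 to 0.054 between same-numbered and -0.089 to 0.077 between other libraries. With the replicate block alone 1513 genes were called, and 1 named gene, Kif11, lost its call. Genes near the count minimum are limited by depth, and a difference that missed the threshold was not detectable rather than absent.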

Other observations

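Heat shock proteins are chaperones that help other proteins fold and keep their shape. Of 15 heat shock genes tested, 5 had a difference above 0 and 1 below (40%, against 10.3% of all genes), with a median of 0.221, and the number above 0 was 4 to 6 over the alternatives. Cryab, the crystallin that also serves muscle, was at 163, 147 and 167 CPM in WT and 113, 114 and 111 CPM in KO-labelled myoblasts, and at 664, 728, 769 and 752 CPM under the WT and 827, 848, 844 and 790.2 CPM under the KO label in fused myotubes (0.68 ± 0.07, adjusted p = 4.2e-07). Hspb7 was at 6.81 and 4.34 CPM in WT and KO-labelled myoblasts and 303 and 302 CPM in fused myotubes (0.66 ± 0.12). Hspb2 (0.62 ± 0.10) lies head to head with Cryab and their annotated transcripts overlap, so their counts are not independent. Hspb6 (0.37) and Hspb8 (0.23) were the others above 0, and Hsp90aa1 (-0.18), the stress-inducible cytosolic chaperone, was the member below. Of 16 genes of muscle atrophy and FoxO signalling only Trim54 was called (0.65 ± 0.07; 6.25%, beside 10.3% of all genes), a ring-finger protein of the sarcomere, at 21.1 and 14.4 CPM in WT and KO-labelled myoblasts and 191 and 204 CPM in fused myotubes.

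Genes with a called difference were spread over the chromosomes. Chromosome 16 held the highest share among the autosomes, 14.11% of 475 genes tested, and chromosome 18 the lowest, 8.09% of 408. Among the 1559 calls, 31 genes had a group whose mean was at or under 3 counts per library, for which no fold is given.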
